A study of Mus musculus with 9 samples.

Results

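The 33 genes described here encode enzymes and regulators of sterol synthesis, uptake, storage and export. They were chosen by gene symbol from 37022 genes in the deposited tables, and all 33 were found. The cells were cytotoxic (CD8+) T lymphocytes of the mouse. Of the 9 libraries, 3 came from acutely stimulated cells, 3 from chronically stimulated cells, and 3 from chronically stimulated cells in which MEK, the kinase that activates ERK, was inhibited. Live cultured cells were given 5-ethynyl uridine, a uridine analogue that enters newly made RNA, and the labelled RNA was captured through a biotin tag and sequenced. The labels give no strain, genotype, age, stimulus, duration or name and dose of the inhibitor, and they do not say whether the libraries of a group came from separate animals or cultures, so p-values measure only the spread between these samples, which may be technical.

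A cell senses its sterol content through a pair of opposed transcription programs. When membrane sterol is low, SCAP escorts the SREBP2 precursor from the endoplasmic reticulum to the Golgi apparatus, where proteases release the active factor, which switches on synthesis and uptake genes; INSIG proteins hold SCAP back when sterol is plentiful. The liver X receptors (LXR) work in the opposite direction: they are activated by oxysterols and by intermediates of sterol synthesis, and switch on export pumps and a ligase that removes lipoprotein receptors. Dividing T lymphocytes are known to raise sterol synthesis to build membrane.

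By role, 19 members were treated as SREBP2-driven, 4 as LXR-driven, 2 as LXR receptors, 3 as processing factors of SREBP, 3 as genes of storage and lysosomal egress, and 2 as other enzymes. This assignment is textbook knowledge and was not tested. SREBP2-driven genes were higher in chronic than in acute libraries without exception, and 16 of the 19 were lower with MEK inhibition than in chronic libraries. The export pump genes Abcg1 and Abca1 and the ligase gene Mylip were lower in chronic libraries, and Abcg1 and Mylip were higher with MEK inhibition.

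Promoter stretches of 5 members are shown, so that the letters near the starts of genes that moved together can be compared. The sequences are from RefSeq, mouse build GRCm38.p6, and 26 of the 33 members matched its table, which covers 250 bases before to 50 after each start. Capitals mark either a CCAAT box (CCAAT or ATTGG, the site of the factor NF-Y, a known partner of SREBP) or a match with up to 1 mismatch to TCACNCCAC, a form of the sterol regulatory element to which SREBP binds. Each stretch lies upstream of the annotated gene and reads 5′ to 3′ on the strand of the gene. Hmgcs1 (chr13:119690104-119690320, plus strand) had the largest rise of the members in chronic libraries. Mvk (chr5:114444086-114444268, plus strand) was 7.49-fold higher there. Cyp51 (chr5:4104787-4104815, minus strand) encodes the enzyme that acts first on lanosterol, Srebf2 (chr15:82147097-82147148, plus strand) encodes SREBP2 itself, and Mylip (chr13:45389542-45389689, plus strand) is shown as an LXR-driven gene that moved the other way.
Hmgcs1: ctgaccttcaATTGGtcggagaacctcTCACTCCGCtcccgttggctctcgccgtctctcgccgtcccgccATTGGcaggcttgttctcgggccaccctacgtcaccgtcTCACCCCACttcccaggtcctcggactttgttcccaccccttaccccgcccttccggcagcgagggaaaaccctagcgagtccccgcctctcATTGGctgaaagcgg
Mvk: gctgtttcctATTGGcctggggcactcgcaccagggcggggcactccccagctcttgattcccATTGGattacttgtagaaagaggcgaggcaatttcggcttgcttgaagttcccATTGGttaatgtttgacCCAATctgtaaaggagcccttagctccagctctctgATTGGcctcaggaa
Cyp51: ccagctctgcTGACGCCACataggccgag
Srebf2: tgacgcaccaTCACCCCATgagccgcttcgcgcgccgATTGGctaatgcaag
Mylip: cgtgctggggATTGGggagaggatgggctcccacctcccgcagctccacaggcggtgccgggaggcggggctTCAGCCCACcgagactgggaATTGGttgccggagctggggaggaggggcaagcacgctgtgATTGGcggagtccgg

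The whole windows, which extend past the printed stretches, were searched on both strands. Cyp51 held a CCAAT box at -29 relative to the RefSeq start, which lies inside the annotated gene and is not printed. Of the 15 SREBP2-driven genes with a promoter, 14 held a CCAAT box, against 37.4% of all 32851 promoters and 42.5% of the 10797 tested genes that had one. A GC box (GGGCGG) was present in 14 of the 15, against 35.7% of all promoters and 64.4% of tested genes. An exact TCACNCCAC was present only in Hmgcs1 among the members (1.24% of all promoters, 1.4% of tested genes). With up to 1 mismatch, a search added after the exact matches were seen, 8 of the 15 matched: Acat2, Cyp51, Dhcr7, Hmgcs1, Hsd17b7, Insig1, Msmo1 and Srebf2 (24.2% of all promoters, 29.5% of tested genes). An E-box (CACGTG) was found in 4 of the 15 (7.15% and 11.1%). The LXR half-site AGGTCA, searched as a direct repeat with 4 bases between copies and up to 2 mismatches, was found in none of the 3 LXR-driven genes with a promoter and in 1 SREBP2-driven gene, Dhcr7 (3.02% and 2.91%). Of the 3 LXR-driven genes with a promoter, 2 held a CCAAT box, 3 a GC box and 1, Mylip, a match with up to 1 mismatch. Over all 26 members with a promoter, these counts were 20, 22 and 11. The CCAAT box, the GC box and the one-mismatch element were thus not particular to the SREBP2-driven genes. All these counts describe letters and do not show binding. A gene with several starts was counted once. In Msmo1 a CCAAT box and the one-mismatch element shared 1 base, and exact elements are also counted in the looser search.

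The Mvk stretch holds 4 ATTGG words at positions -173, -120, -67 and -14 relative to the RefSeq start, which are separated by 53 bases each. A CCAAT read forward, at -50, lies between the last pair. In the Hmgcs1 stretch both sterol elements read forward on the strand of the gene, and its 3 boxes are all written ATTGG. Of the 26 members with a promoter, 22 had a deposited transcript that starts within 100 bases of the RefSeq start. Idi1 and Hmgcs1, at 105 and 113 bases, were just outside that distance. Msmo1 was at 214 and Nr1h3 at 7718 bases, so the Nr1h3 values belong to a transcript that starts far from the searched windows. Dhcr7 has 3 windows, and its measured transcript starts at that of window 1, which held only a GC box. Its CCAAT boxes and direct repeat lie in window 3, and its E-box and one-mismatch element in window 2. The counts of those motifs thus include Dhcr7 through starts other than that of the measured transcript.

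**Figure D1:**
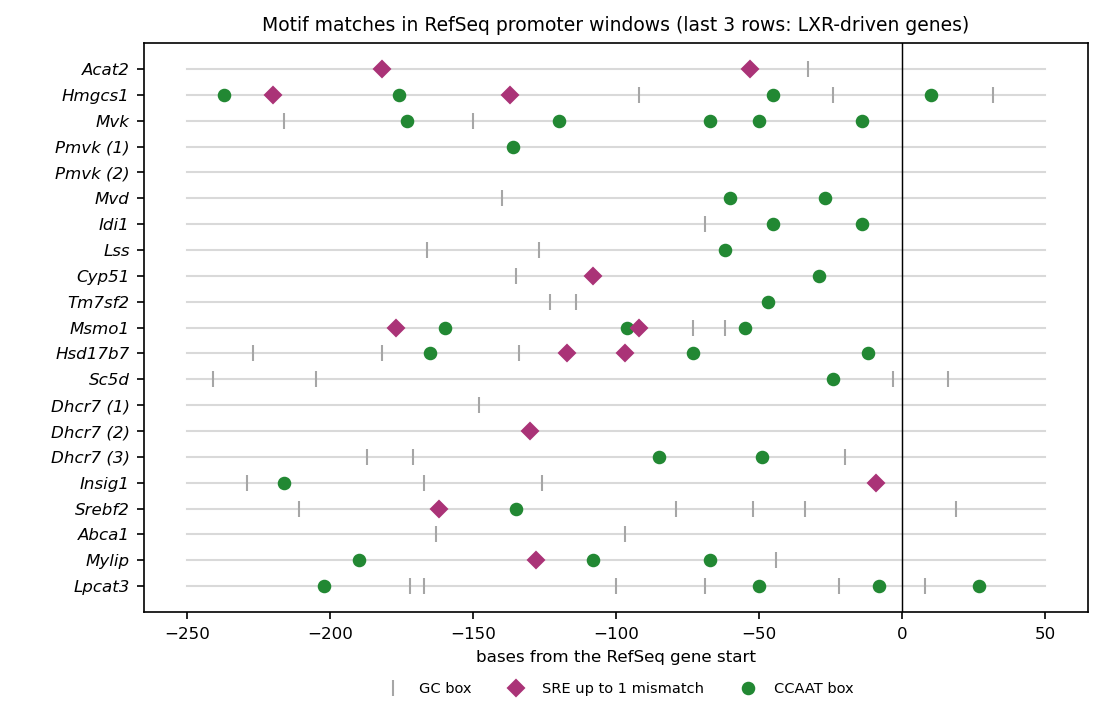
Positions of CCAAT boxes (circles), elements with up to 1 mismatch to TCACNCCAC (diamonds) and GC boxes (ticks) in the RefSeq promoter windows of SREBP2-driven genes and, in the last 3 rows, of LXR-driven genes; the x axis is distance in bases from the RefSeq start, and genes with several starts have a numbered row for each. CCAAT boxes appear in 14 of 15 SREBP2-driven genes and in 2 of 3 LXR-driven genes. The evenly spaced Mvk row has 4 of its 5 boxes 53 bases apart.

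Values are the signal deposited for the gene body, scaled between libraries by a trimmed mean of log ratios; they have no read unit and the depth in reads is unknown. A gene was tested if its deposited signal, before scaling, reached 50 in at least 3 libraries, which 15942 genes and all 33 members did. After scaling, 32 of the members were at 50 or above in every library. The exception was Tm7sf2, which was below 50 in acute libraries and passed through the other groups. A change was called at an adjusted p below 0.05 from limma, with Benjamini-Hochberg adjustment over all genes tested. Another annotated gene overlaps 17 of the members, on the opposite strand in 13 and on the same strand in 5, and strand use is not given in the sources used here, so values of those members may include signal of the neighbour.

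Deposited gene-body signal summed to 48601757 to 52216192 per library, and log2 signal correlated across genes at 0.959 to 0.984 within groups and 0.910 to 0.954 between groups. A ribosomal RNA-like locus took 19.1% to 22.3% of it in acute, 34.2% to 40.6% in chronic and 29.0% to 36.1% in MEK-inhibited libraries. The 6 CD8 T cell markers were all detected. Their summed scaled signal was 15603 to 17220 in acute, 10201 to 10829 in chronic and 13353 to 15038 in MEK-inhibited libraries, with Cd8a at 832 to 1171 in chronic against 3653 to 4340 in acute libraries. Of 8 macrophage, monocyte and dendritic markers 4 passed the filter, and the list had a summed signal of 305 to 443, 310 to 328 and 195 to 444 in the same order. Of 5 B cell markers 2 passed (534 to 565, 189 to 219 and 160 to 435). Cd4 was the 1 CD4 T cell marker analysed here (383 to 496, 144 to 344 and 101 to 141). Of 3 NK markers only Eomes, which T cells also express, passed (summed signal 1263 to 1434, 971 to 1834 and 1568 to 1693), and no erythroid marker passed. The part of these markers in the results below was not tested; a median scaled without the locus is given with the list medians. Fewer cells of a type and less RNA per cell cannot be told apart in bulk samples.

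Dusp6, a phosphatase gene induced by MEK signalling, served to check the inhibitor. Its signal was 2194, 2549 and 2772 in acute, 2379, 2315 and 2491 in chronic and 211, 208 and 193 in MEK-inhibited libraries. It was 11.5-fold lower with inhibition than in chronic libraries (log2 fold change -3.52, SE 0.13, adjusted p 5.23e-12), so the labels and this gene matched.

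The first comparison asked how chronic differs from acute stimulation. Of the 33 members 20 were called higher and 6 lower in chronic libraries, against a background of 18.0% of all tested genes called higher and 15.9% called lower. All 20 that rose were SREBP2-driven except Lpcat3. The 19 SREBP2-driven genes were called higher with a median log2 fold change of 2.05, from 0.69 for Srebf2 to 3.16 for Hmgcs1, while the median of all tested genes was -0.02. In none of the 19 did an acute library overlap a chronic one, but the share of all tested genes so separated was not counted. Tm7sf2 had to differ, since it passed the filter only through the groups where it is high; the other 18 reached 50 in every library. With MEK inhibition 4 members were called higher and 16 lower than in chronic libraries, against 9.92% and 7.65% of all tested genes. The 16 lower members were all SREBP2-driven; the median of the 19 was -0.78, where that of all genes was 0.04. Compared with acute libraries, MEK-inhibited ones had 21 members higher and 2 lower, against 14.4% and 11.5% of all tested genes. All 19 SREBP2-driven genes were among the 21, with a median of 1.31. Here too Tm7sf2 passed the filter only through the groups where it is high, which favours a rise. The chronic libraries enter both of the first comparisons and the acute ones enter both comparisons with acute, so the changes are not independent of each other and are given side by side.

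The order of the groups was the same in most SREBP2-driven genes. In 16 of the 19 every acute library was below every MEK-inhibited library, which in turn was below every chronic library. Lpcat3 had the same order, which makes 17 of the 33 members, whereas 3.33% of all tested genes had it. Both counts include Tm7sf2, which passed the filter only through chronic and MEK-inhibited libraries. That favours a low place of its acute libraries, so its order is a description. The reverse order, with acute highest and chronic lowest, was seen in Abca1, Abcg1 and Mylip, 3 of the 33, and in 4.22% of all tested genes. The remaining 13 members had neither order.

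**Figure D2:**
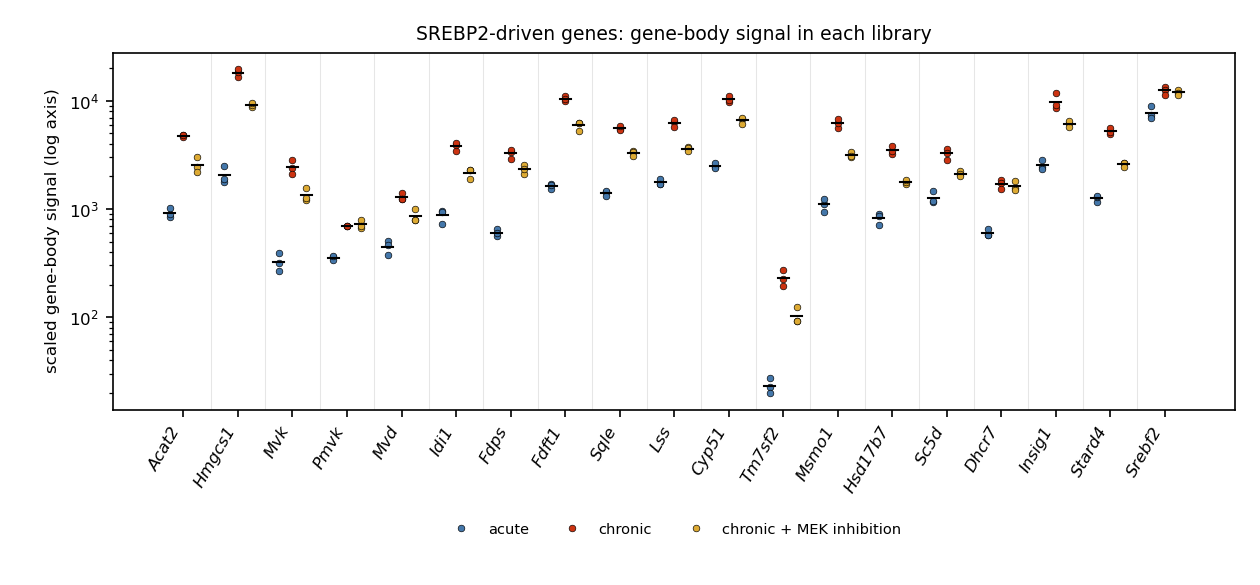
Scaled gene-body signal (log axis) of the 19 SREBP2-driven genes in each library, with points for the 3 libraries of a group and black bars for their means: blue acute, red chronic, yellow chronic with MEK inhibition. Chronic libraries lie above acute ones in all 19 genes, and MEK-inhibited libraries lie between the groups in 16 of them, not in Pmvk, Dhcr7 or Srebf2. The share of all tested genes with acute and chronic libraries apart was not counted. Tm7sf2, among the 16, passed the filter only through the groups where it is high.

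The enzymes that lead to mevalonate are described first. Hmgcs1 (chromosome 13, 119690464 to 119708260), the cytosolic HMG-CoA synthase that commits acetyl units to the pathway, had signals of 1774, 1893 and 2522 in acute, 16771, 18367 and 19810 in chronic and 8789, 9240 and 9471 in MEK-inhibited libraries. It was 8.94-fold higher in chronic than acute libraries (log2 3.16, SE 0.11, adjusted p 6.64e-13) and 1.99-fold lower with inhibition (log2 -1.0, SE 0.11, adjusted p 3.96e-06). All groups were apart, and the MEK-inhibited libraries were still above every acute one. Acat2 (chromosome 17, 12942890 to 12960747), the thiolase that joins acetyl-CoA units just before that step, had 839, 907 and 1030 in acute, 4795, 4621 and 4799 in chronic and 3061, 2427 and 2201 in MEK-inhibited libraries. Its log2 fold changes were 2.35 (SE 0.12, adjusted p 7.01e-11) and -0.90 (SE 0.12, adjusted p 3.22e-05), again with no overlap.

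Mevalonate is then phosphorylated and decarboxylated by the products of Mvk, Pmvk and Mvd. Mvk (chromosome 5, 114444294 to 114460584), the kinase of the first phosphorylation, had 318, 393 and 267 in acute, 2856, 2408 and 2130 in chronic and 1576, 1217 and 1275 in MEK-inhibited libraries. It was 7.49-fold higher in chronic libraries (log2 2.91, SE 0.17, adjusted p 1.86e-10) and fell by 0.86 on the log2 scale with inhibition (SE 0.17, adjusted p 0.000984). Mvd, the decarboxylase, had 510, 461 and 374 in acute, 1415, 1226 and 1242 in chronic and 788, 1005 and 796 in MEK-inhibited libraries, a rise of 1.53 (SE 0.16, adjusted p 7.15e-07). Its fall of 0.59 with inhibition (SE 0.16, adjusted p 0.0161) was not called without chronic replicate 1 (adjusted p 0.0627) or MEK-inhibited replicate 3 (adjusted p 0.0728).

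Pmvk, the phosphomevalonate kinase that acts between those enzymes, had 361, 334 and 370 in acute, 692, 694 and 698 in chronic and 674, 790 and 700 in MEK-inhibited libraries. It was 1.95-fold higher in chronic libraries (log2 0.96, SE 0.16, adjusted p 0.000143). With inhibition it differed from chronic libraries by 0.05 (SE 0.16, adjusted p 0.889), and those groups overlapped. Whether its response to inhibition differs from that of Mvk or Mvd was not tested.

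Isoprenoid units are built next. Fdps (chromosome 3, 89093588 to 89101959), the farnesyl diphosphate synthase, had 566, 647 and 603 in acute, 2933, 3353 and 3536 in chronic and 2541, 2102 and 2360 in MEK-inhibited libraries. It rose by 2.42 (SE 0.12, adjusted p 3.45e-11) and fell by 0.49 with inhibition (SE 0.12, adjusted p 0.00712), and the groups did not overlap. Idi1, the isomerase that makes the starter unit, had 953, 728 and 931 in acute, 3425, 3913 and 4040 in chronic and 2281, 1885 and 2317 in MEK-inhibited libraries. Its log2 fold changes were 2.12 (SE 0.13, adjusted p 4.07e-10) and -0.81 (SE 0.13, adjusted p 0.000153). Ggps1, which draws farnesyl units away to geranylgeranyl diphosphate and is not treated as SREBP2-driven here, had 1156, 1374 and 1470, then 1054, 1144 and 1080, and then 1157, 827 and 754 in the same order of groups. It did not differ detectably between chronic and acute libraries (-0.28, adjusted p 0.188), and its call between MEK-inhibited and acute libraries (-0.56, SE 0.16, adjusted p 0.0128), with overlapping groups, was lost without MEK-inhibited replicate 3 (adjusted p 0.081). Without MEK-inhibited replicate 1 it was called lower with inhibition than in chronic libraries (-0.52, adjusted p 0.0342). Scaled to library totals it was called lower in chronic than acute libraries (-0.77, adjusted p 0.00114).

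The branch that is committed to sterols begins with Fdft1, the squalene synthase. Fdft1 (chromosome 14, 63145150 to 63179578), which overlaps Ctsb on the opposite strand, had 1516, 1700 and 1650 in acute, 9897, 11188 and 10462 in chronic and 6241, 6282 and 5310 in MEK-inhibited libraries. It was 6.47-fold higher in chronic libraries (log2 2.69, SE 0.10, adjusted p 6.1e-13) and 1.77-fold lower with inhibition (log2 -0.82, adjusted p 4.88e-06). Sqle, the squalene epoxidase and a rate-limiting step, had 1449, 1483 and 1331 in acute, 5491, 5346 and 5893 in chronic and 3460, 3343 and 3126 in MEK-inhibited libraries. It rose by 1.97 (SE 0.09, adjusted p 2.76e-11) and fell by 0.75 (SE 0.09, adjusted p 1.27e-05). Lss, the cyclase that forms lanosterol, had 1706, 1909 and 1694, then 6348, 5696 and 6646, and then 3723, 3674 and 3469. It rose by 1.81 (SE 0.10, adjusted p 7.98e-11) and fell by 0.78 (SE 0.10, adjusted p 9.42e-06). All 3 genes had groups that did not overlap.

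Lanosterol is converted to cholesterol by demethylation, reduction and desaturation. Cyp51 (chromosome 5, 4081145 to 4104746), the lanosterol demethylase, overlaps Akap9 on the opposite strand and had 2462, 2410 and 2672 in acute, 9845, 10205 and 11216 in chronic and 6870, 6184 and 6936 in MEK-inhibited libraries. It rose by 2.05 (SE 0.09, adjusted p 9.21e-12) and fell by 0.64 (SE 0.09, adjusted p 4.15e-05). Msmo1, the sterol methyl oxidase that follows it, had 1119, 946 and 1245, then 5642, 6275 and 6751, and then 3026, 3359 and 3117. It rose by 2.50 (SE 0.11, adjusted p 1.24e-11) and fell by 0.97 (SE 0.11, adjusted p 4.75e-06). Hsd17b7, the ketosteroid reductase of the same demethylation complex, had 903, 713 and 860, then 3263, 3426 and 3827, and then 1689, 1773 and 1848. Its changes were 2.08 (SE 0.12, adjusted p 1.96e-10) and -0.98 (SE 0.12, adjusted p 7.79e-06). In these genes the MEK-inhibited libraries lay between the other groups without overlap.

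The weakest member of the pathway was Tm7sf2, a sterol reductase, at 22.4, 27.5 and 19.7 in acute, 194, 270 and 223 in chronic and 91.3, 92.5 and 125 in MEK-inhibited libraries. It was 8.26-fold higher in chronic libraries on the log2(signal + 5) scale (log2 3.05, SE 0.38, adjusted p 4.29e-06), and it overlaps Vps51 on its own strand. Since it passed the filter only through the groups where it is high, this rise is a description. Its fall of 1.12 with inhibition (SE 0.38, adjusted p 0.0478) was not called when any 1 chronic or MEK-inhibited library was left out (adjusted p 0.0725 to 0.171), although the groups did not overlap. Sc5d, the sterol desaturase, had 1168, 1464 and 1192, then 2860, 3626 and 3308, and then 2249, 2106 and 2022. It rose by 1.35 (SE 0.12, adjusted p 6.71e-08) and fell by 0.61 (SE 0.12, adjusted p 0.00117).

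Dhcr7, the reductase that turns 7-dehydrocholesterol into cholesterol, had 579, 650 and 570 in acute, 1843, 1727 and 1546 in chronic and 1823, 1573 and 1495 in MEK-inhibited libraries. It rose by 1.5 in chronic libraries (SE 0.13, adjusted p 5.66e-08), and with inhibition it was -0.07 from chronic libraries (SE 0.13, adjusted p 0.81), with overlapping groups. Dhcr7 and Pmvk were thus the enzymes of the set for which no fall with MEK inhibition was detected.

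The SREBP2-driven regulators were Srebf2, Insig1 and Stard4. Srebf2 (chromosome 15, 82147181 to 82205379) had 7360, 8959 and 6988 in acute, 13464, 12750 and 11280 in chronic and 12760, 11869 and 11459 in MEK-inhibited libraries. Its rise of 0.69 (1.61-fold, SE 0.10, adjusted p 3.05e-05) was the smallest of the 19, and with inhibition it differed from chronic libraries by -0.05 (adjusted p 0.802). Scaling to library totals, which moves the median of all genes to -0.50 in this comparison, left Srebf2 at 0.20 and uncalled (adjusted p 0.229). Its rise of 0.64 between MEK-inhibited and acute libraries (SE 0.10, adjusted p 0.000107) was likewise not called when scaled to library totals (0.25, adjusted p 0.153) or on the deposited scale (0.29, adjusted p 0.0992). The row for Srebf2 also spans the intronic microRNA gene Mir33.

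Insig1 (chromosome 5, 28071363 to 28078662), which retains SCAP in the endoplasmic reticulum and so closes a negative feedback loop, had 2473, 2357 and 2818 in acute, 8525, 9139 and 11896 in chronic and 6192, 5709 and 6455 in MEK-inhibited libraries. It rose by 1.94 (SE 0.12, adjusted p 3.3e-10) and fell by 0.67 with inhibition (SE 0.12, adjusted p 0.000333). Stard4, a soluble sterol carrier, had 1164, 1291 and 1329, then 4905, 5187 and 5672, and then 2673, 2648 and 2433. It rose by 2.05 (SE 0.10, adjusted p 3.5e-11) and fell by 1.02 (SE 0.10, adjusted p 7.23e-07), the smallest adjusted p of the members in that comparison. In both genes the 3 groups were apart.

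Levels differ between genes, and were compared per kilobase of the transcript span of each row, since the coordinates of the deposited gene bodies are not given in the sources used here. In chronic libraries Insig1 had the highest mean signal per kilobase of the 19 genes, 1350, followed by Hmgcs1 at 1029, Idi1 at 546, Cyp51 at 442, Msmo1 at 398 and Fdps at 391. Tm7sf2 was lowest at 45.5, just below Pmvk at 48.0. In acute libraries Insig1 was again highest at 349, followed by Srebf2 at 133, Idi1 at 125 and Hmgcs1 at 116, and Tm7sf2 was lowest at 4.62. Hmgcs1 thus moved from the fourth to the second place. Across the 19 genes the log2 fold change between chronic and acute libraries had a Spearman correlation of -0.15 with row length and -0.19 with the acute level per kilobase, which describes these libraries only, since the fold change and the acute level share the acute libraries.

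The LXR-driven genes did not move as 1 group. Abcg1 (chromosome 17, 31057687 to 31117988), a pump that passes sterol to lipoprotein particles, had 2023, 2778 and 2138 in acute, 391, 699 and 596 in chronic and 1199, 1070 and 1079 in MEK-inhibited libraries. It was 4.16-fold lower in chronic libraries (log2 -2.06, SE 0.18, adjusted p 8.33e-08) and 2.03-fold higher with inhibition than without (log2 1.02, SE 0.18, adjusted p 0.000538). It remained 2.05-fold lower than in acute libraries (log2 -1.04, SE 0.18, adjusted p 0.000344). The 3 groups did not overlap.

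Mylip (chromosome 13, 45389742 to 45412022), a ubiquitin ligase that marks lipoprotein receptors for degradation, had 1154, 1115 and 1134 in acute, 365, 572 and 351 in chronic and 807, 956 and 741 in MEK-inhibited libraries. It was 2.69-fold lower in chronic libraries (log2 -1.43, SE 0.18, adjusted p 7.45e-06) and 1.97-fold higher with inhibition (log2 0.98, SE 0.18, adjusted p 0.000801). Its difference between MEK-inhibited and acute libraries, -0.45, was not called (adjusted p 0.0848), but was called without chronic replicate 2 (-0.45, adjusted p 0.0371), scaled to library totals (-0.83, adjusted p 0.00214), on the deposited scale (-0.79) and without ribosomal RNA-like rows (-0.62). The 3 groups did not overlap here either.

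Abca1 (chromosome 4, 53030787 to 53159895), the pump that loads sterol onto lipid-poor apolipoprotein, was weaker, at 321, 285 and 266 in acute, 127, 152 and 119 in chronic and 159, 214 and 183 in MEK-inhibited libraries. It was 2.15-fold lower in chronic libraries (log2 -1.10, SE 0.27, adjusted p 0.00322). Its difference with inhibition, 0.46 (SE 0.27, adjusted p 0.272), and its difference between MEK-inhibited and acute libraries, -0.64 (SE 0.27, adjusted p 0.0873), were not called, although the groups did not overlap. The latter was called when scaled to library totals (-1.02, adjusted p 0.00833).

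Lpcat3, a lysophospholipid acyltransferase that raises polyunsaturated chains in membrane lipid, went with the synthesis genes. It had 3171, 3169 and 3028 in acute, 5206, 4459 and 4713 in chronic and 4241, 3977 and 3625 in MEK-inhibited libraries, and it overlaps Emg1 on the opposite strand. It rose by 0.61 in chronic libraries (SE 0.10, adjusted p 5.54e-05), a call that was lost when scaled to library totals (0.12, adjusted p 0.472). With inhibition it was at -0.28 from chronic libraries (SE 0.10, adjusted p 0.0504), just short of a call, and it was called when acute replicate 1, 2 or 3, chronic replicate 2 or MEK-inhibited replicate 1 was left out (adjusted p 0.0261, 0.0135, 0.023, 0.0447 and 0.0232). Its rise of 0.34 between MEK-inhibited and acute libraries (SE 0.10, adjusted p 0.0135) was lost on leaving out replicate 1 or 3 of the acute group (adjusted p 0.0724 and 0.106) or replicate 1 or 2 of the MEK-inhibited group (0.152 and 0.0511), and turned to -0.05 when scaled to library totals.

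**Figure D3:**
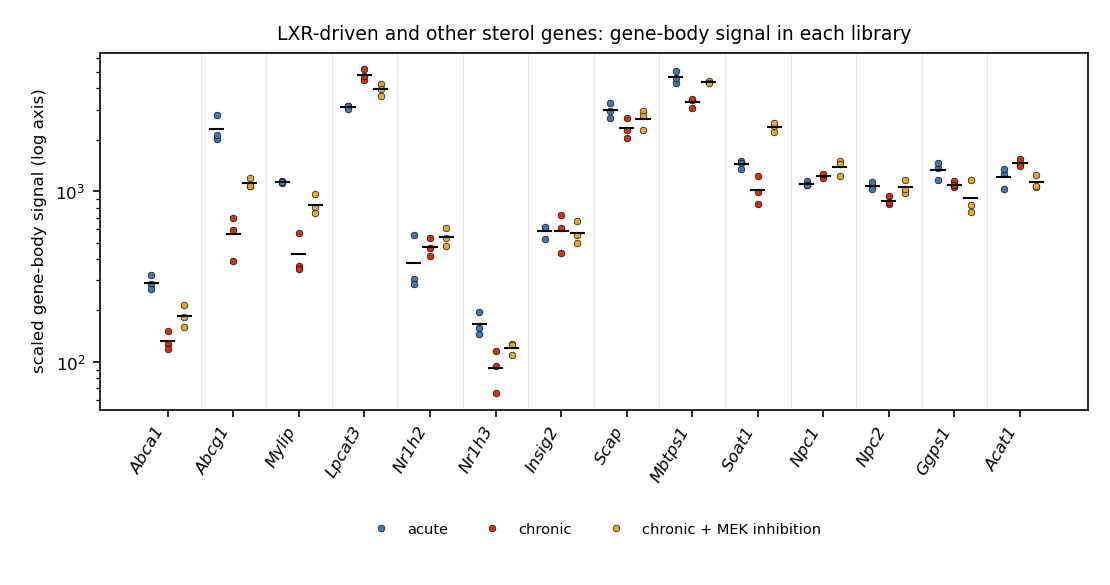
Scaled gene-body signal (log axis) of the 14 members outside the SREBP2-driven set in each library, with points for the 3 libraries of a group and black bars for their means: blue acute, red chronic, yellow chronic with MEK inhibition. Abca1, Abcg1 and Mylip are lowest in chronic libraries with all groups apart, Lpcat3 is highest there, and Soat1 is highest with MEK inhibition.

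The SREBP2-driven and LXR-driven lists were set against each other library by library, as the median over a list of log2 signal relative to the mean of acute libraries. For the 19 SREBP2-driven genes it lay between -0.04 and 0.05 in acute libraries, at 1.97, 2.04 and 2.21 in chronic and at 1.40, 1.23 and 1.31 in MEK-inhibited libraries. For the 4 LXR-driven genes it lay between -0.07 and 0.02 in acute libraries, at -1.39, -0.94 and -1.46 in chronic and at -0.67, -0.34 and -0.63 in MEK-inhibited libraries. Each chronic library was thus highest for the first list and lowest for the second, and no library of one group overlapped another group in either. The median of the 4 genes hides Lpcat3, which rose in chronic libraries (log2 0.61). No other list was measured in this way, so how often lists separate is not known. The ribosomal RNA-like share described above also ran in the order acute, MEK-inhibited, chronic, although not without overlap. Scaled to totals that leave that locus out, the SREBP2-driven median between chronic and acute libraries was 1.90.

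**Figure D4:**
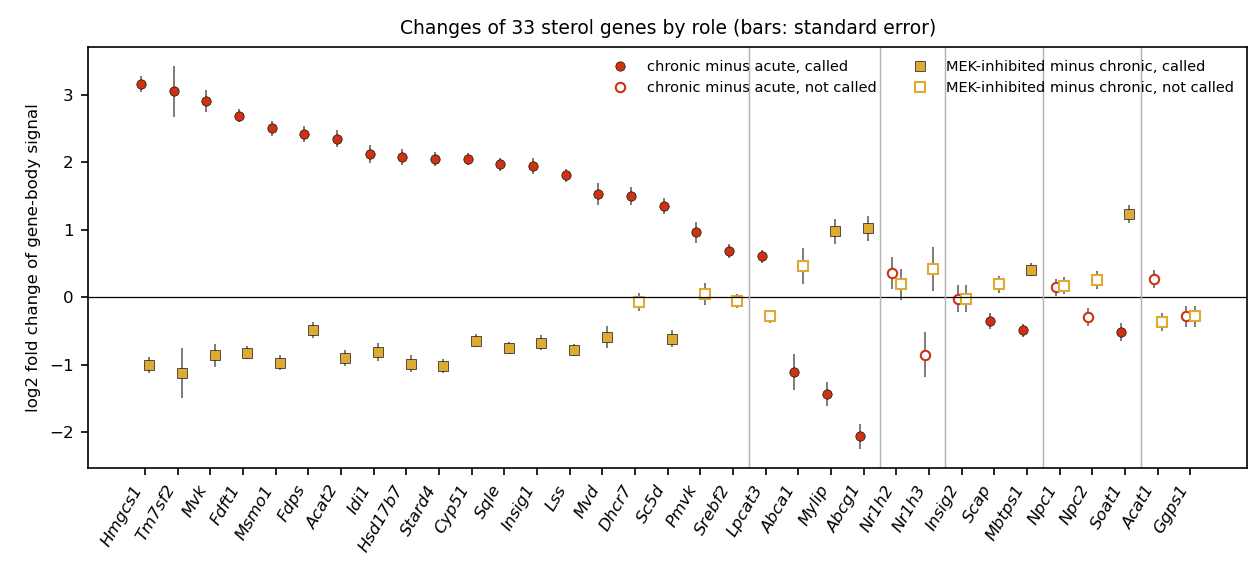
Log2 fold change of gene-body signal for the 33 members, in blocks by role from left to right (SREBP2-driven, LXR-driven, LXR receptors, SREBP processing, storage and lysosomal egress, other enzymes); red circles are chronic minus acute, yellow squares MEK-inhibited minus chronic, filled where called, with bars of 1 standard error. Red points run from 3.16 to 0.69 in the SREBP2-driven block while 16 of its 19 yellow points are called below 0; both sets share the chronic libraries.

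The receptors that drive export showed no called change. Nr1h2, which encodes the widely expressed LXR beta, had 306, 551 and 285 in acute, 462, 418 and 531 in chronic and 605, 478 and 532 in MEK-inhibited libraries. Over acute libraries it was at 0.36 in chronic and 0.55 in MEK-inhibited libraries (log2, adjusted p 0.254 and 0.0949). Without acute replicate 2, the high value of its group, these were 0.66 and 0.80 and were called (adjusted p 0.0231 and 0.0101). Nr1h3, which encodes LXR alpha and overlaps other annotated genes on both strands, had 146, 157 and 197, then 65.4, 94.3 and 115, and then 127, 109 and 126. It was at -0.85 in chronic libraries with groups apart but uncalled (SE 0.33, adjusted p 0.0561), and was called without chronic replicate 3 (-1.02, adjusted p 0.0402), scaled to totals of all rows (-1.33) or of rows that are not ribosomal RNA-like (-1.01), on the deposited scale (-1.31) and without a variance trend (-0.85).

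The factors that process SREBP did not rise in chronic libraries with the genes it drives. Mbtps1, the site-1 protease that makes the first cut, had 4319, 5080 and 4619 in acute, 3402, 3452 and 3086 in chronic and 4390, 4438 and 4331 in MEK-inhibited libraries. It fell by 0.49 in chronic libraries (SE 0.09, adjusted p 0.000379) and rose by 0.41 with inhibition (SE 0.09, adjusted p 0.00416). That rise was not called without a filter (0.37, adjusted p 0.163). Scap, the escort, had 2954, 3266 and 2699, then 2690, 2293 and 2048, and then 2946, 2750 and 2293. It fell by 0.35 in chronic libraries (SE 0.12, adjusted p 0.0364). That call was lost on leaving out replicate 1 or 2 of the acute group (adjusted p 0.0672 and 0.116) or replicate 2 or 3 of the chronic group (0.0942 and 0.135). Scaled to library totals, Mbtps1 and Scap were called lower in MEK-inhibited than acute libraries (-0.47 and -0.55, adjusted p 0.00662 and 0.00887). The median of all genes was at -0.37 there. Insig2, the constitutive partner of Insig1 that is not driven by SREBP2, ranged from 435 to 722 over all libraries, and its changes of -0.02, -0.02 and -0.04 in the 3 comparisons were not called (adjusted p 0.961, 0.964 and 0.916).

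Storage gave the largest rise with MEK inhibition among the members. Soat1 (chromosome 1, 156424525 to 156474331), which esterifies sterol for storage in droplets, had 1500, 1468 and 1349 in acute, 841, 992 and 1222 in chronic and 2207, 2414 and 2494 in MEK-inhibited libraries. It was 2.35-fold higher with inhibition than without (log2 1.23, SE 0.13, adjusted p 2.26e-06) and 1.43-fold lower in chronic than acute libraries (log2 -0.51, SE 0.13, adjusted p 0.00598). It was also above acute libraries with inhibition, by 0.72 (SE 0.13, adjusted p 0.000543; 0.34 and adjusted p 0.069 when scaled to library totals). The groups did not overlap.

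Npc1 and Npc2, which hand sterol out of the lysosome, were not called in any comparison. Npc1, which overlaps Rmc1 on the opposite strand, ranged from 1084 to 1140 in acute, 1189 to 1267 in chronic and 1220 to 1512 in MEK-inhibited libraries. Its difference between MEK-inhibited and acute libraries was 0.32 (adjusted p 0.0639), and it was called without MEK-inhibited replicate 3 (0.42, adjusted p 0.0373). Npc2 ranged from 1025 to 1138, 846 to 934 and 970 to 1170, with -0.29 in chronic against acute libraries (adjusted p 0.105), which was called when scaled to library totals (-0.78, adjusted p 0.000288). Acat1, the mitochondrial thiolase that serves ketone bodies rather than sterols, ranged from 1032 to 1352, 1396 to 1548 and 1064 to 1251. Its change with inhibition was -0.37 (adjusted p 0.0639), and it was called on leaving out any replicate of the acute group (adjusted p 0.0412, 0.0158 and 0.033) or replicate 1 of the MEK-inhibited group (0.0326). In chronic against acute libraries Acat1 was at 0.27 (adjusted p 0.127), beside 2.35 for the cytosolic enzyme Acat2; the difference between them was not tested.

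Other genes of the pathway, 46 in 3 lists, showed how far the change extended, and 42 of them passed the filter. In chronic libraries 7 were called higher and 9 lower than in acute ones, or 16.7% and 21.4%, near the backgrounds of 18.0% and 15.9%. With inhibition 6 were higher and 5 lower than in chronic libraries (14.3% and 11.9%, beside 9.92% and 7.65% of all tested genes). Against acute libraries 5 were higher and 5 lower (11.9% each, beside 14.4% and 11.5%). Of 14 genes that use isoprenoids, such as prenyltransferases, none rose and 2 fell in chronic libraries in limma, with a median of 0.01. Of 11 genes of sterol sensing and enzyme turnover 3 rose and 3 fell (median -0.03), and of 17 tested genes of sterol transport, esters and oxysterols 4 rose and 4 fell (median -0.02). Vldlr, Ch25h, Cyp27a1 and Hsd3b7 did not pass the filter.

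Some of the genes called in a comparison whose groups did not overlap each other are described next; the group outside the comparison may overlap either. Lrp8, a lipoprotein receptor, had 6661, 7205 and 5811 in acute, 15789, 14329 and 10889 in chronic and 7181, 6558 and 5919 in MEK-inhibited libraries, a rise of 1.05 (SE 0.13, adjusted p 4.65e-06) and a fall of 1.05 with inhibition (adjusted p 1.03e-05). Lrp8 moved in the direction of the SREBP2-driven members. Scarb2, a lysosomal membrane protein, had 5516, 6200 and 5907, then 1920, 1954 and 1687, and then 3748, 4159 and 3647. It went the other way, at -1.66 in chronic against acute (SE 0.10, adjusted p 2.83e-10), 1.05 with inhibition against chronic and -0.61 against acute libraries. Fntb, a farnesyltransferase subunit, was at -1.10 in chronic libraries (SE 0.11, adjusted p 3.66e-07). Ncoa1, a nuclear receptor coactivator, rose by 0.79 with inhibition (SE 0.12, adjusted p 9.1e-05). Against acute libraries MEK-inhibited ones had higher Gramd1c, a sterol transfer protein, and Erlin1, a protein of the endoplasmic reticulum (0.84 and 0.81, adjusted p 0.0232 and 0.000293), and lower Rxra, the partner receptor of LXR (-0.93, SE 0.18, adjusted p 0.000791).

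The second deposited table is read here as signal of the pause region, the stretch near the start where polymerase waits before elongation. Its values are lower, and 22 of the 33 members passed the same filter there, so the counts below leave out Acat2, Pmvk, Idi1, Fdft1, Tm7sf2, Dhcr7, Abca1, Abcg1, Nr1h3, Insig2 and Acat1. Of 13 SREBP2-driven genes tested 11 were called higher in chronic than acute libraries, with a median of 1.82, and Mylip was the 1 member called lower; of all 7678 genes tested 5.37% were called higher and 5.34% lower. In 7 of the 13 (Mvk, Mvd, Fdps, Cyp51, Msmo1, Hsd17b7 and Sc5d) at least 1 acute library was below 50, so these passed the filter only with libraries of the other groups, which favours rises, and the count and median are no support by themselves. The other 6 (Hmgcs1, Sqle, Lss, Insig1, Stard4 and Srebf2) reached 50 in every acute library and were all called higher. With inhibition 4 members were called lower than in chronic libraries, against 1.43% of genes: Hmgcs1, Sqle, Lss and Stard4. Against acute libraries 7 were called higher in MEK-inhibited ones, against 3.44% of genes: Hmgcs1, Mvk, Fdps, Insig1, Sqle, Msmo1 and Srebf2. The same limit of the filter holds for Mvk, Fdps and Msmo1 here, so this count is no support by itself either. Hmgcs1, Insig1, Sqle and Srebf2 reached 50 in every acute library.

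Hmgcs1 had pause-region signals of 68.0, 133 and 189 in acute, 1108, 1030 and 1019 in chronic and 611, 533 and 546 in MEK-inhibited libraries, a rise of 3.08 (SE 0.25, adjusted p 5.15e-10) and a fall of 0.90 with inhibition (SE 0.25, adjusted p 0.0421). That fall was not called when any 1 chronic or MEK-inhibited library was left out (adjusted p 0.0949 to 0.174). Mvk, the gene with the evenly spaced boxes, had 1.8, 5.3 and 22.7, then 102, 93.4 and 102, and then 41.7, 31.7 and 65.1, a rise of 3.06 (SE 0.60, adjusted p 0.000719). No acute library of Mvk reached 50 here; it passed the filter through the groups where it is high, so its rise is a description. Mylip had 194, 189 and 301, then 58.6, 119 and 48.3, and then 157, 115 and 224, a fall of 1.60 in chronic libraries (SE 0.34, adjusted p 0.00166). For these 3 genes the change near the start had the same direction as in the gene body, and acute and chronic libraries did not overlap.

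The falls of Sqle, Lss and Stard4 in the pause region with inhibition were 0.85, 1.04 and 1.20 (adjusted p 0.0253, 0.0239 and 0.0109). Each depended on single libraries. Sqle was not called without chronic replicate 1 or 3 or MEK-inhibited replicate 1, 2 or 3 (adjusted p 0.076 to 0.159), Lss without chronic replicate 1 or 2 or MEK-inhibited replicate 1, 2 or 3 (0.0597 to 0.132), and Stard4 without chronic replicate 2 or MEK-inhibited replicate 3 (0.0651 and 0.134). The rises of Hsd17b7 and Srebf2 between chronic and acute libraries, 1.45 and 0.66 (adjusted p 0.0378 and 0.0466), were likewise lost on leaving out single libraries: for Hsd17b7 any of the acute replicates 1 and 2, the chronic replicates and MEK-inhibited replicate 1 (0.0539 to 0.132), for Srebf2 any acute replicate, chronic replicate 1 or 2 or MEK-inhibited replicate 1 or 2 (0.0535 to 0.247). Of the calls between MEK-inhibited and acute libraries, that of Mvk was lost without any 1 library other than acute replicate 3 (0.0686 to 0.225), that of Fdps without MEK-inhibited replicate 1 or 2 (0.07 and 0.0702), that of Msmo1 without acute replicate 2 or any MEK-inhibited replicate (0.0766 to 0.135), and that of Srebf2 without acute replicate 3 or MEK-inhibited replicate 1 or 2 (0.0764 to 0.11). The SREBP2-driven genes not called higher in chronic libraries were Mvd, at 1.30 (SE 0.50, adjusted p 0.0977), and Cyp51. Cyp51 was at 15.9, 83.7 and 43.5 in acute, 59.6, 39.7 and 117 in chronic and 63.2, 47.6 and 86.2 in MEK-inhibited libraries, with overlapping groups and a change of 0.66 (SE 0.51, adjusted p 0.476) beside 2.05 in the gene body.

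Whether a gene changed more near its start than in its body was tested on the difference between the tables, for 7413 genes that passed in both, 22 of them members. In limma no gene was called higher or lower in any of the 3 comparisons (0.0% of genes each), while 749, 394 and 591 genes had an unadjusted p under 0.05 between chronic and acute, MEK-inhibited and chronic, and MEK-inhibited and acute libraries. Among members these were Cyp51 and Nr1h2 in the first comparison, at -1.39 and -1.04 (adjusted p 0.42 and 0.40), and Ggps1 in the other two, at 0.87 and 0.90 (adjusted p 0.733 and 0.549). A difference between start and body was therefore not detectable for any member with 3 libraries a group.

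**Figure D5:**
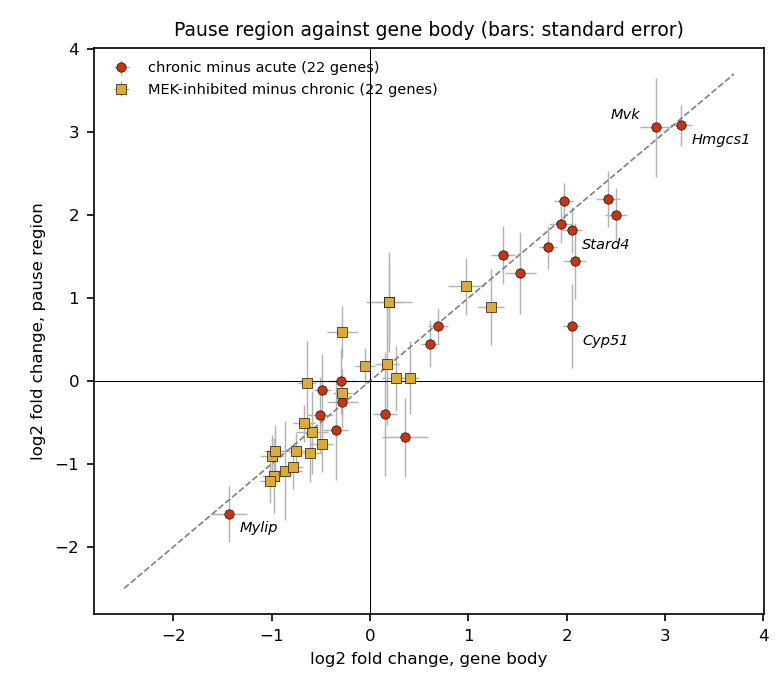
Log2 fold change in the pause region (y axis) against that in the gene body (x axis) for the 22 members tested in both tables, with bars of 1 standard error; red circles are chronic minus acute, yellow squares MEK-inhibited minus chronic, and the dashed line marks equal change. Hmgcs1 and Mvk lie at the top near 3.1 on the y axis, Mylip is the lowest red point at -1.60, and Cyp51 lies below the line at 0.66 against 2.05.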

How the data were processed

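Per the labels' protocols, newly made RNA was labelled with 5-ethynyl uridine, captured and sequenced in 9 libraries. Per the submitters' processing notes, the tools were FastQC 0.12.0, Trim Galore 0.6.10, STAR 2.7.0a, SAMtools 1.19.2, deepTools 0.1.9 and R 4.1.2, and the build was mm10. The authors deposited signal per transcript in 2 tables, read here as gene body and pause region. The values are whole multiples of a step that differs between libraries (0.764 to 1.06), and 4 steps occur more often than 3, so they were not treated as reads and depth is unknown.

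Of 118482 rows, 117346 matched GENCODE M21 transcripts with their version and 383 without it; each gene was represented by its strongest row in the gene-body table. Each table was scaled by a trimmed mean of log ratios (30% of ratios and 5% of levels trimmed). Genes with deposited signal of at least 50, before scaling, in at least 3 libraries were tested, with Benjamini-Hochberg adjustment and a threshold of 0.05. One limma model (limma 3.58.1, R 4.3.3, trend, robust) was fitted to log2(signal + 5) of all 9 libraries. Fold changes of weak genes are understated on this scale. The model was tested on simulated data. Python 3.11.15 and pandas 2.3.3 joined the tables. Promoters were RefSeq sequences.

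The members, role lists and tests were chosen with earlier results of these data known. All 33 members are named; of the other pathway genes, the 2 largest rises and 2 largest falls per gene-body comparison among called genes with groups apart. Not every gene that meets this rule is reported here. Alternatives were other scalings, pseudocounts, filters, transcript rows, fits of 2 groups, no trend, a replicate block and leaving out each library; those of the pause region were added after seeing the data.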

Additional observations from a re-analysis of the deposited data

How the results depend on the processing

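Over all alternatives, 2037 of 2133 gene-body values of members and Dusp6 kept their side of the threshold, 45 lost and 49 gained a call, and 2 reversed. In the pause region 1288 of 1383 kept their side, 91 lost and 4 gained a call. A value uncalled in both fits counted as kept even if its sign changed. Reversals were counted only where at least 1 of the fits gave a call. The reversals were Lpcat3 between MEK-inhibited and acute libraries, at -0.05 scaled to library totals and -0.01 on the deposited scale. Scaling to library totals, the deposited scale and totals without ribosomal RNA-like rows moved the SREBP2-driven median to 1.56, 1.58 and 1.90 between chronic and acute libraries and to 0.93, 0.97 and 1.14 between MEK-inhibited and acute libraries. The first 2 of these moved the LXR-driven median to -1.75 and -1.73, and to -0.92 and -0.88. These scalings move the median of all genes between chronic and acute libraries to -0.50, -0.48 and -0.17, so directions are relative to it. Members lower in MEK-inhibited than acute libraries numbered 8, 7 and 4 under the 3 scalings and 1 without a filter. The median of all genes in this comparison moves to -0.37, -0.33 and -0.16 under those scalings. The share of all genes called per setting is not given here. These counts and those that follow are therefore not a result about the members. In the pause region, 7 members were higher in chronic libraries with a filter of 200. With inhibition 1 was higher under library totals and the deposited scale; none was lower (0) under those scalings, without a filter or without trend, and 2 without ribosomal RNA-like rows. Against acute libraries 3 were higher under library totals or without a filter. Leaving out 1 library gave 1 to 3 members lower in MEK-inhibited than acute libraries and an SREBP2-driven median of 1.20 to 1.39 there. In the pause region it gave 0 to 1 higher and 0 to 4 lower with inhibition and 3 to 6 higher against acute libraries.

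The labels do not say whether replicate numbers pair the samples. Deviations from the group mean correlated from -0.53 to 0.10 over the 9 same-numbered pairs of libraries. Differently numbered libraries of different groups reached 0.51 (acute replicate 2 with MEK-inhibited replicate 1). Deviations from a mean of 3 libraries depend on each other, so these values cannot decide whether samples were paired. A replicate block left 20 members higher and 6 lower between chronic and acute libraries; with inhibition it left 4 higher and 16 lower, with Tm7sf2 losing its call (adjusted p 0.0734) and Lpcat3 gaining one (adjusted p 0.0357). The falls of Mvd and Fdps with inhibition were not called under library totals (adjusted p 0.0865 and 0.0679), and Soat1 between chronic and acute libraries not without a filter (0.0837). The causes of these changes were not tested. Signal near 50, as for Tm7sf2, and the pause region limit what could be detected.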
